A study of Homo sapiens with 6 samples.

Results

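Long intergenic noncoding RNA (LINC) genes were followed in 22RV1 cells that stably carried 1 of 2 microRNAs. Members were chosen by name and by detection on these arrays, from probes whose gene name on the array was LINC followed by digits. A probe was kept when its Cy3 or Cy5 signal was well above background, by the image software's own call, on at least 3 of the 6 arrays. This left 476 of 1658 LINC probes and 322 of 838 LINC genes on the array, out of 27503 probes detected among 58201 gene probes. The rule used signals of these same arrays, so detection is given as a description.

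22RV1 is an established prostate cancer line that expresses the secreted protease inhibitor SPINK1. The lines were made with lentiviral vectors and kept under puromycin: pLemiR-338-5p gave the miR-338-5p line (3 arrays, replicates 1, 2 and 3), pLemiR-421 gave the miR-421 line (3 arrays, a pool and replicates 1 and 2), and pLemiR-RFP gave the control line. The cell line, the vector family and the selection were common to all 3 lines. On each array the Cy3 channel held control RNA and the Cy5 channel held RNA of a miRNA line, with no dye swap, so a dye effect and a miRNA effect cannot be told apart. The labels do not say what was pooled, whether replicates were separate cultures, or whether 1 control culture served all arrays. The p-values then measure only the spread between these arrays, and both comparisons may share control RNA.

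LINC is a naming root for long noncoding transcripts that lie between protein-coding genes and have no name from a function. Such RNAs act in many ways where they have been studied: in the nucleus on neighbouring genes or chromatin, in the cytoplasm as binders of RNA-binding proteins and microRNAs, and a few turned out to encode micropeptides. MicroRNAs pair with target RNAs mainly through their seed, the bases near the 5′ end, and prostate tumours are known for lineage-restricted long noncoding RNAs.

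The overexpressed microRNAs are shown with the seed, bases 2 to 8, in capitals, from RefSeq (GRCh38.p14). Their seeds differ.
hsa-miR-338-5p: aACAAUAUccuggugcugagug
hsa-miR-421: aUCAACAGacauuaauugggcgc

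The probes on which the LINC results turn are DNA oligonucleotides of 60 bases, shown 5′ to 3′ with any run of 4 or more C in capitals, because probes with such runs stood apart below. Positions are on hg19, as in the deposited files. The probe of LINC00685 (chrX:281742-281801, plus strand) gave the fall whose miR-421 call held under the most alternatives. Those of LINC01029 (chr18:75683311-75683370, minus strand) and LINC01511 (chr5:1363700-1363759, minus strand) gave the largest fall and rise in the miR-338-5p line under the main processing. LINC00882 (chr3:106828684-106828743, minus strand) is the gene that rose at every detected probe, and LINC00087 (chrX:134229057-134229116, minus strand) had the largest rise in the miR-421 line.
LINC00685: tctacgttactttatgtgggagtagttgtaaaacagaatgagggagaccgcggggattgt
LINC01029: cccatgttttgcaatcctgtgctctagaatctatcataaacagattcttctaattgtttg
LINC01511: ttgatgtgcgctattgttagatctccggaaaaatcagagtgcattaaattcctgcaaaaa
LINC00882: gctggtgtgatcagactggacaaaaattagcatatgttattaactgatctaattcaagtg
LINC00087: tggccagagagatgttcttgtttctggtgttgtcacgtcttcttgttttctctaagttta

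The 3 probes of LINC00173, which disagreed with each other, lie along 12q on the plus strand at chr12:116972087-116972146, chr12:116973091-116973150 and chr12:116974257-116974316. The probes of LINC01356 (chr1:113392302-113392361, minus strand) and LINC00644 (chr14:62600877-62600936, minus strand) are bright probes with C runs.
LINC00173 probe 1: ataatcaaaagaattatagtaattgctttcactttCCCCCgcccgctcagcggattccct
LINC00173 probe 2: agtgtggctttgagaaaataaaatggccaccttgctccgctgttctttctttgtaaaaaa
LINC00173 probe 3: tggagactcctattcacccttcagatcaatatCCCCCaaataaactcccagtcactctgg
LINC01356: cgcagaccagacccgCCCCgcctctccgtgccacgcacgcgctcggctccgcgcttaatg
LINC00644: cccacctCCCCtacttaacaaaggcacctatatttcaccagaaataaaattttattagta

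The complement of the miR-338-5p seed (ATATTGT) was in 1 of the 476 probe sequences, against 0.509% of all detected probes, and that of the miR-421 seed (CTGTTGA) was also in 1, against 0.64% of all. They were a probe of LINC01234 and a probe of LINC00174, and neither passed the test in either line. The search covered 1 strand of the 60 printed bases of each probe and not the transcripts.

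No gene spot was saturated, and 41.9% to 48.3% of gene spots were well above background in each channel of each array. SPINK1 was lower on all 6 arrays, with log2 ratios of -3.04, -2.10 and -6.78 in the miR-338-5p line and -7.02, -6.68 and -6.15 in the miR-421 line. All 13 prostate luminal markers were detected, while 9 of the 13 markers of other cell types were, none with a mean log2 intensity above 7.34. The labelled cell type thus had its luminal markers, HOXB13 and KLK3 among them.

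LINC probes were detected less often and were dimmer than others. Of the LINC probes 28.7% were detected, against 47.3% of all gene probes. Their median log2 intensity over both dyes was 6.26, against 6.85 for all detected probes, and 42.9% of them lay in the dimmest of 4 bins that each hold an equal number of all detected probes. Between 22.6% and 28% of LINC probes were well above background in a given channel. Of the 476, 362 were detected on all 6 arrays and 31 on exactly 3, while 45 just outside the rule were detected on 2. Both dyes met the rule in 388. In 60 only Cy5 did and in 18 only Cy3 did.

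The array's names have aged. RefSeq matched 470 of the 476 probes, and 58 of the 322 genes now carry another symbol. RefSeq lists 301 of the genes as long noncoding, 15 as protein coding and 3 as transcribed pseudogenes, and 3 were not matched. LINC00657 is now NORAD, LINC00152 is CYTOR and LINC01578 is CHASERR. Only 19 of the probes shared a stretch of 25 bases with a probe of another gene name on the array.

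In the miR-338-5p line 25 LINC probes passed the test against control, 15 higher and 10 lower, which is 5.25% of them, while 9.02% of all detected probes passed. They belong to 18 genes, 11 higher and 7 lower. Under miR-421 60 passed, 44 higher and 16 lower, or 12.6% against 21.5% of all detected probes. These belong to 50 genes, 38 higher and 13 lower, with LINC00667 in both counts. Each call is limma's adjusted p under 0.05 over all detected probes. In a population of cells, a lower ratio from fewer expressing cells and one from less RNA per cell cannot be told apart.

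The LINC calls leaned towards rises, and those of all detected probes towards falls. Of all detected probes 9.01% were called higher and 12.5% lower in the miR-421 line, whereas LINC calls were mostly higher. For the miR-338-5p line these shares were 3.76% and 5.26%. The lean was not particular to LINC names. In the miR-421 line LOC names gave 123 higher and 64 lower, lnc or lincRNA names 177 and 115, and XLOC names 29 and 22. In the miR-338-5p line they gave 55 and 31, 49 and 48, and 11 and 8. With median centring in place of loess, the LINC calls in the miR-338-5p line became 5 higher and 10 lower, so that direction depends on the scaling. Falls also outnumbered rises with the mean of a gene's probes (7 higher, 8 lower), with no filter (6 and 8), without miR-338-5p replicate 1 (1 and 3), without miR-421 replicate 2 (2 and 4) and without the miR-421 pool (4 and 5), and the 1 call with the arrays of the line alone was a fall. Median centring gave 30 higher and 13 lower calls in the miR-421 line. With the arrays of that line alone they were 18 and 13. Without miR-421 replicate 2 they were 2 and 2, the only setting in which rises did not outnumber falls there.

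These counts rested on single arrays. The miR-338-5p count was 4 without its replicate 1, 7 without replicate 2 and 3 without replicate 3. Because all arrays share 1 estimate of the spread, it was also 6 without miR-421 replicate 2 and 9 without the miR-421 pool. Without miR-421 replicate 1 it was 33. The miR-421 count was 4 without its replicate 2, 27 without its replicate 1 and 45 without the pool. It was 43, 54 and 46 without miR-338-5p replicates 1, 2 and 3. With the 3 arrays of a line fitted alone, 1 LINC probe passed in the miR-338-5p line and 31 in the miR-421 line.

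Few of the dimmest probes were called. In the dimmest bin of intensity 1.47% of LINC probes passed in the miR-338-5p line, against 1.53% of all, and in the next-to-brightest bin 12.5% did, against 13.6%. The second bin had 6.16% against 7.85%, and the brightest 6.52%, or 3 of 46 probes, against 13.1%, so the share did not rise with brightness throughout in that line. Under miR-421 the shares of LINC probes from dimmest to brightest were 1.47%, 9.59%, 32.5% and 37%. For all detected probes they were 3.77%, 17%, 30.8% and 34.5%. Within the 2 brighter bins the LINC share was thus close to the share of all probes in the miR-421 line, and its direction was not. The brightest bin held 15 LINC probes called higher and 2 lower, while all probes there split into 1115 and 1257. In that bin 20 of the 46 LINC probes held a run of 4 or more C, against 1153 of 6876 of all probes. With a run the LINC calls were 9 higher and 0 lower, and those of all probes 364 and 73. Without a run they were 6 and 2, and 751 and 1184.

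**Figure D1:**
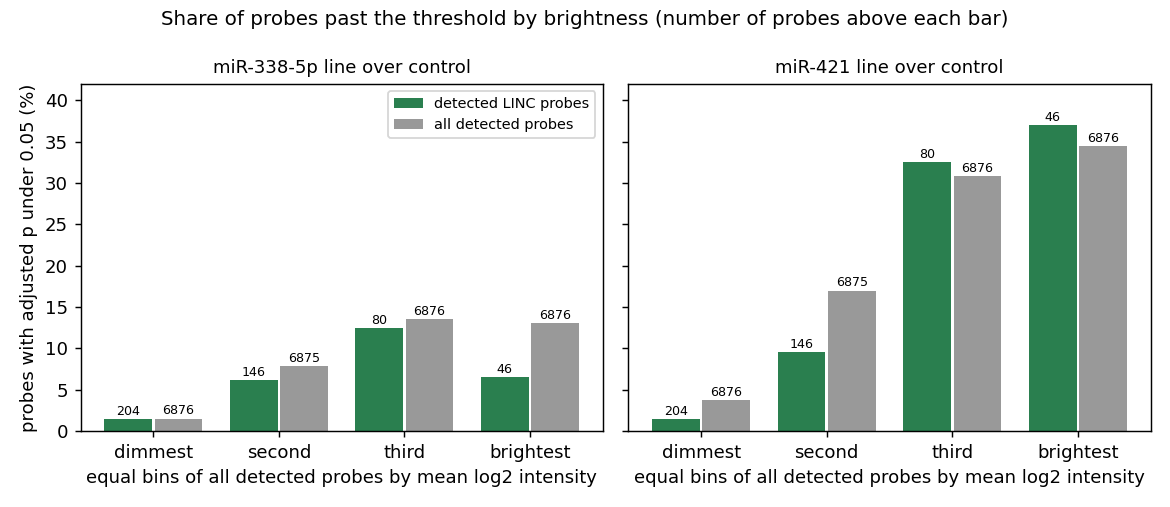
Percentage of probes with limma's adjusted p under 0.05 (y axis) by equal bin of mean log2 intensity over all detected probes (x axis), for LINC probes and all detected probes, with the number of probes above each bar. The bin limits are log2 6.17, 6.85 and 8.56, and 204 of the 476 LINC probes fall in the dimmest bin.

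Most LINC probes moved little. The median LINC log2 ratio was 0.03 in the miR-338-5p line and 0.04 in the miR-421 line, against 0.00 for all probes in each. From the 5th to the 95th percentile LINC ratios ran from -0.22 to 0.45 in the first line and from -0.28 to 0.56 in the second. On single arrays the LINC median ran from 0.01 to 0.06, highest on miR-421 replicate 1. That array also had the widest spread of LINC ratios, an SD over probes of 0.41 where the other arrays had 0.27 to 0.33. With the image software's own ratio the LINC medians were 0.11 and 0.27.

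**Figure D2:**
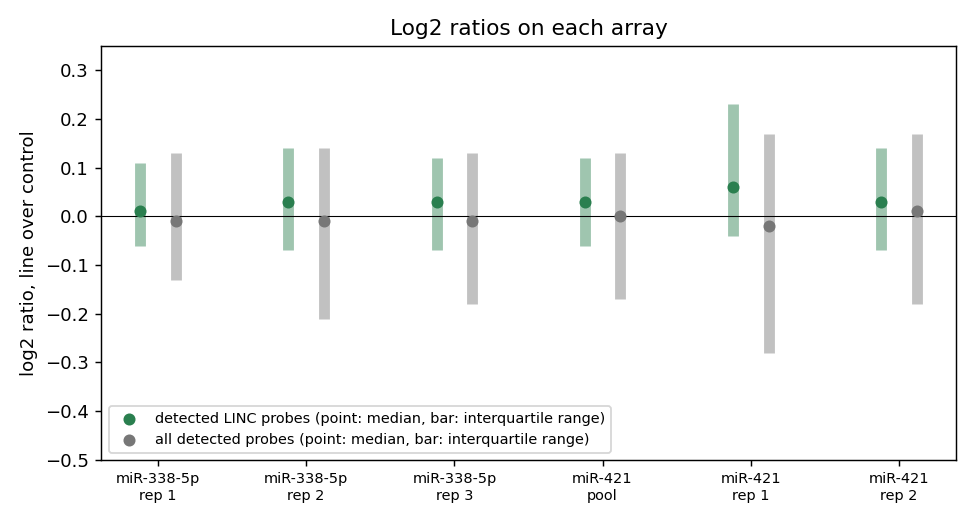
Median (point) and interquartile range (bar) of the log2 ratios of miRNA line over control (y axis) on each array (x axis), for the 476 LINC probes and all detected probes. The LINC medians lie between 0.01 and 0.06, and their interquartile ranges are narrower than those of all probes on every array.

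Called sizes were modest. For miR-338-5p they ran from -1.35 to 1.28 on the log2 scale with a median size of 0.60, and 5 probes reached 2-fold. For miR-421 they ran from -1.38 to 1.45 with a median size of 0.52, and 12 reached 2-fold. An offset of 50 intensity units was part of the background correction, so folds of dim probes are understated. With plain subtraction in its place, 13 of the 26 called values of named genes were over 1.5 times as large.

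The largest rise in the miR-338-5p line was that of LINC01511, on chromosome 5 between CLPTM1L and the dopamine transporter gene SLC6A3. Its log2 ratios were 1.90, 0.88 and 1.07 there, a mean of 1.28 ± 0.54 (SD, n = 3) or 2.43-fold, with limma's adjusted p = 0.0321. All 3 arrays were high. On the miR-421 arrays it gave 1.27, 0.60 and 1.46, a mean of 1.11 with limma's adjusted p = 0.0267, and the lines overlapped. A second probe of the gene was at 0.46 and 0.53 and passed in neither. CLPTM1L was at -0.23 in the miR-338-5p line, where it did not pass. It rose by 0.41 in the miR-421 line (limma's adjusted p = 0.0243).

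LINC01144, on chromosome 1 beside HPDL, gave 1.05, 0.75 and 1.34 in the miR-338-5p line, a mean of 1.04 ± 0.29 (SD, n = 3), with limma's adjusted p = 0.0257. Its values on the miR-421 arrays were 0.95, 0.19 and 0.88, with limma's adjusted p = 0.0443. Replicate 1 of miR-421 was the low array. HPDL, the next protein-coding gene, fell in both lines, by 1.01 and by 1.17 on the log2 scale, with limma's adjusted p = 0.0120 and 0.00469.

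LINC01003, on chromosome 7 beside the histone methyltransferase gene KMT2C, gave 1.43, 0.48 and 0.86 in the miR-338-5p line (mean 0.92 ± 0.48, SD, n = 3; limma's adjusted p = 0.0392). The miR-421 arrays gave 1.32, 0.79 and 1.20 (mean 1.11 ± 0.28, SD, n = 3; limma's adjusted p = 0.0150). It was high on all 6 arrays, and miR-338-5p replicate 2 was lowest. KMT2C itself fell by 1.04 on the log2 scale in the miR-421 line (limma's adjusted p = 0.0371) and was at -0.64 in the miR-338-5p line, where it missed the threshold.

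LINC00882, on chromosome 3, was the gene with the most probes in support. At its brightest probe it gave 1.05, 0.63 and 0.82 in the miR-338-5p line, a mean of 0.83 ± 0.21 (SD, n = 3), with limma's adjusted p = 0.0338. All 5 detected probes passed in that line, with means of 0.45, 0.47, 0.50, 0.64 and 0.83, and the 15 values lay between 0.39 and 1.05. Under miR-421 the brightest probe gave 0.32, 1.06 and 0.41 (limma's adjusted p = 0.0464), with replicate 1 high, and 4 of the 5 probes passed. Probes of 1 gene share its RNA and are not replicates of the line.

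LINC00476 and LINC00959 completed the rises named in the miR-338-5p line. LINC00476, now ERCC6L2-AS1 after the DNA repair gene ERCC6L2 that it overlaps, gave 0.65, 0.34 and 0.90 (limma's adjusted p = 0.0302). LINC00959, now C10orf143, gave 0.57, 0.20 and 0.83 (limma's adjusted p = 0.0446). Both were lowest on replicate 2. Under miR-421 they were at 0.32 and 0.21 and did not pass, and limma's test of the difference between lines gave an adjusted p of 0.458 and 0.452.

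With the offset, the largest fall in both lines was that of LINC01029, on chromosome 18 near SALL3. This rank changed with plain background subtraction. LINC00641 and LINC00672 were then at -1.93 and -1.65 in the miR-338-5p line, where LINC01029 was at -1.36. In the miR-421 line they were at -1.89 and -2.17, and LINC01029 at -1.43. Cy5 of LINC00641 was well above background on 1 of 3 miR-338-5p arrays and 2 of 3 miR-421 arrays. For LINC00672 these counts were 0 and 1, so the subtracted sizes of both rest on Cy5 signal near background. The brightest probe of LINC01029 gave -1.57, -0.84 and -1.63 in the miR-338-5p line. The mean was -1.35 ± 0.44 (SD, n = 3) or 39.3% of control, with limma's adjusted p = 0.0452. The miR-421 values were -0.82, -2.24 and -1.08, or 38.4% of control, with limma's adjusted p = 0.0262. All 6 values were low and the lines overlapped. Its other 2 probes also passed in both lines, with means of -1.12 and -0.65 and of -1.02 and -0.64. SALL3 was at -0.04 and 0.31 and did not pass.

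LINC00685, in the pseudoautosomal region of the X chromosome beside PPP2R3B, fell evenly. It gave -0.55, -0.66 and -0.59 in the miR-338-5p line, a mean of -0.60 ± 0.06 (SD, n = 3; limma's adjusted p = 0.0120). The miR-421 arrays gave -0.72, -0.67 and -0.45, a mean of -0.61 ± 0.14 (SD, n = 3; limma's adjusted p = 0.00605). About the same level, 66.0% and 65.5% of control, was left in both lines. The miR-421 call held under all 18 alternatives, with adjusted p up to 0.035, and no other named call did so.

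LINC01482, LINC00641, LINC00515 and LINC00672 were the other named falls in the miR-338-5p line. LINC01482 gave -0.47, -0.62 and -0.52 (limma's adjusted p = 0.0265), and LINC00641, beside HNRNPC, gave -0.31, -0.49 and -0.71 (limma's adjusted p = 0.0238). LINC00515 gave -0.38, -0.39 and -0.41 (limma's adjusted p = 0.0149). All were low on all 3 arrays, by less than 2-fold with the offset. With plain background subtraction LINC00641 was at -1.93 and LINC00515 at -1.29, both past 2-fold, and LINC01482 was at -0.90. Cy5 of LINC00641 was well above background on only 1 of the 3 miR-338-5p arrays, so its subtracted size is uncertain. LINC00672, now LASP1NB, was not well above background in Cy5 on any of those arrays, so its fall of 0.30 on the log2 scale is at least 1.23-fold (limma's adjusted p = 0.0310).

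The calls of the miR-338-5p line were thin. Each named one was lost when some single array was left out, LINC00685 in 2 of 6 such fits and LINC01029, LINC00882, LINC01003, LINC01511, LINC00672, LINC01482 and LINC00959 in 5 of 6. Without replicate 3, limma's adjusted p was 0.168 for LINC01029, 0.123 for LINC00882, 0.104 for LINC01144, 0.0969 for LINC01511 and 0.130 for LINC01003. None of these genes changed sign in any alternative.

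**Figure D3:**
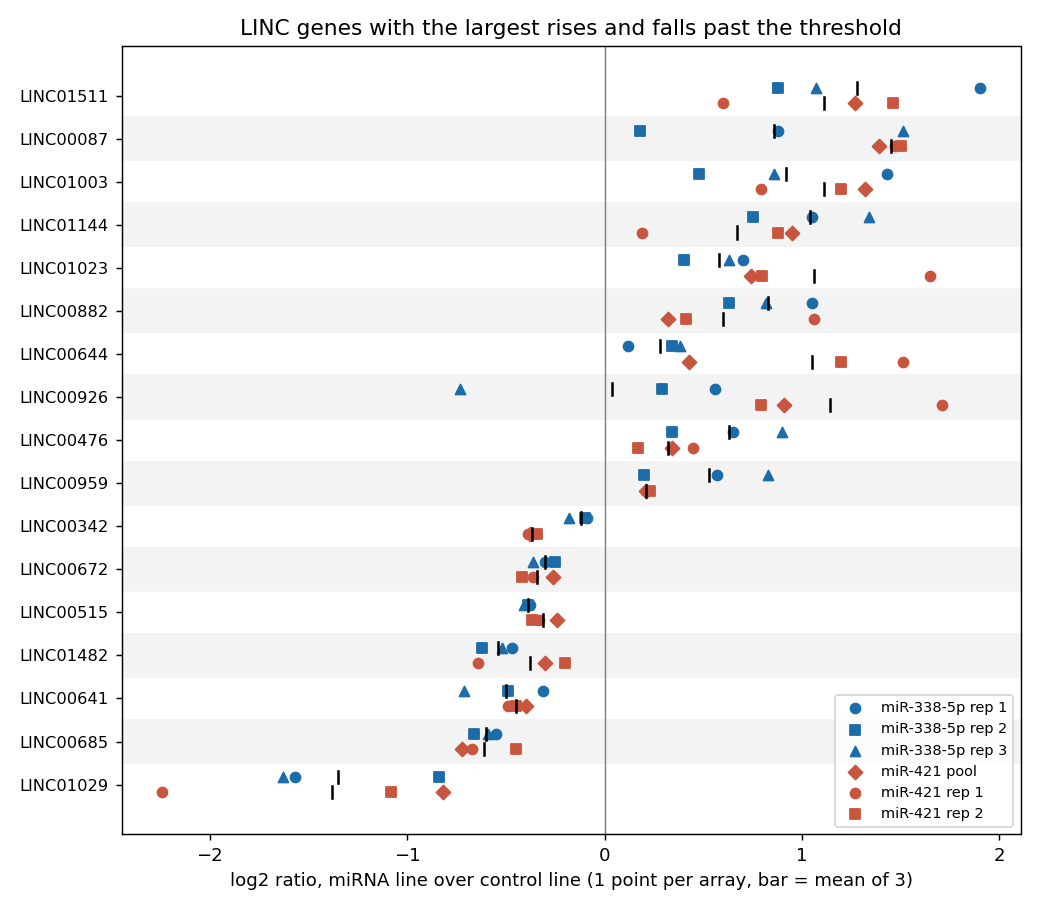
Log2 ratio of miRNA line over control (x axis) at the brightest probe of 17 LINC genes, those with the largest rises and falls past the threshold in either line (y axis). Points are arrays and short bars the mean of 3. LINC01029 lies lowest on all 6 arrays, LINC00685 is tight around -0.60, and LINC00926 is high in the miR-421 line while its miR-338-5p values run from -0.73 to 0.56.

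The largest rise in the miR-421 line was that of LINC00087, on chromosome X. RefSeq gave no match for its brightest probe, so its present class was not checked. In the authors' deposited table LINC01511 rose more in that line, by 1.89 against 1.38. Its values were 1.39, 1.47 and 1.50, a mean of 1.45 ± 0.06 (SD, n = 3) or 2.74-fold, with limma's adjusted p = 0.0121. The 3 arrays were nearly equal. The miR-338-5p arrays gave 0.88, 0.18 and 1.51, which missed the threshold (limma's adjusted p = 0.0699), and the difference between lines was -0.60 with a 95% interval from -1.38 to 0.18. Without miR-421 replicate 2 limma's adjusted p in the miR-421 line was 0.0729.

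LINC00926, LINC01023 and LINC00644 rose about as much as LINC01003 and LINC01511 in the miR-421 line. LINC00926, on chromosome 15 near the transcription factor gene TCF12, gave 0.91, 1.71 and 0.79 (mean 1.14 ± 0.50, SD, n = 3; limma's adjusted p = 0.0390). LINC01023, on chromosome 5 between FBXL17 and FER, gave 0.74, 1.65 and 0.80 (mean 1.06 ± 0.51, SD, n = 3; limma's adjusted p = 0.0154). LINC00644, on chromosome 14, gave 0.43, 1.51 and 1.20 (mean 1.05 ± 0.56, SD, n = 3; limma's adjusted p = 0.0191). Replicate 1 was the highest array for all 3 genes. Without miR-421 replicate 2 all 3 calls were lost, at adjusted p of 0.105, 0.0636 and 0.1.

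The named falls of the miR-421 line were LINC01029 and LINC00685, above, and LINC00641, LINC01482, LINC00342 and LINC00672. LINC00641 gave -0.40, -0.49 and -0.45 (limma's adjusted p = 0.0183) and LINC01482 gave -0.30, -0.64 and -0.20 (limma's adjusted p = 0.0360). LINC00342, on chromosome 2, gave -0.38, -0.39 and -0.34 (limma's adjusted p = 0.00844) and shared a stretch of 25 bases with a probe of another transcript. LINC00672 gave -0.26, -0.36 and -0.42 (limma's adjusted p = 0.0133), while the actin-binding protein gene LASP1 beside it rose by 2.14 (limma's adjusted p = 0.00283). Of these, LINC00342 and LINC00672 lost the call only without miR-421 replicate 2, at adjusted p of 0.0578 and 0.0816. The call of LINC00641 was lost without each miR-421 array, and that of LINC01482 without each of the 6 arrays.

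No LINC probe differed between the lines by limma's test, which called 0.0473% of all detected probes. At an unadjusted p under 0.05 there were 37 LINC probes, while 13.6% of all detected probes were under it. With a trended and robust variance estimate 2 LINC probes passed, those of LINC01287 and LINC00659. The values of the 2 lines did not overlap for 85 LINC probes, or 17.9%, against 19.9% of all.

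LINC01287, on chromosome 7 beside the actin-related gene ACTR3B, came nearest. It gave 0.06, 0.01 and -0.21 in the miR-338-5p line and 0.82, 0.70 and 0.57 in the miR-421 line, with no overlap. The difference was -0.74 with a 95% interval from -1.01 to -0.47 and limma's adjusted p = 0.0902. Against control it rose by 0.70 in the miR-421 line (limma's adjusted p = 0.00605), while ACTR3B fell in both lines, by 0.76 and by 0.89.

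Among probes with no overlap, the rule named 3 in each direction. Higher in the miR-338-5p line were LINC01213 by 0.46 (95% interval 0.11 to 0.82), LINC00938 by 0.34 (-0.03 to 0.70) and LINC00174 by 0.30 (0.03 to 0.57). Lower there, besides LINC01287, were LINC00926 by -1.10 (-2.08 to -0.12) and LINC00644 by -0.77 (-1.44 to -0.09). None passed, with adjusted p from 0.265 to 0.405, so no difference was shown for them. LINC01213 was detected on exactly 3 arrays, all of the miR-338-5p line where it was higher, and on the miR-421 arrays neither its Cy3 nor its Cy5 signal was well above background.

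Genes read by several probes show how far 1 probe can speak for a gene. Of the 322 genes, 95 had several detected probes. Their means differed in sign in 38 genes in the miR-338-5p line and in 41 in the miR-421 line, mostly near 0. Some but not all probes passed in 8 and 22 genes. Every detected probe passed in 1 direction in 2 genes in the miR-338-5p line, LINC00882 and LINC01029, and in LINC01029 in the miR-421 line.

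LINC00173 was split by position. Its middle probe gave -0.96, -1.02 and -1.24 in the miR-338-5p line (mean -1.07 ± 0.15, SD, n = 3; limma's adjusted p = 0.00590) and -0.79, -0.65 and -0.98 in the miR-421 line (limma's adjusted p = 0.00553). Its last probe was at -0.31 (limma's adjusted p = 0.0289) and -0.20. The first probe, which is the brightest and holds CCCCC, gave 0.09, 0.37 and 0.15 and then 0.11, 0.92 and 0.59. It was above 0 on the 6 arrays on which the middle probe was low, so no single direction describes the gene.

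The probes of LINC00240 and of LINC00662 disagreed too, those of LINC00662 not by position. The first LINC00240 probe, whose 60 bases span an intron and cover 11334 bases of chromosome 6 (chr6:26924913-26936246, plus strand), gave 0.75, 0.30 and 1.02 and then 0.72, 0.55 and 0.61. It passed in both lines (limma's adjusted p = 0.0338 and 0.0254), while the 2 probes at the far end stayed between -0.35 and 0.03. LINC00662, on chromosome 19, was at 1.01, 0.62 and 0.73 at 3 probes in the miR-338-5p line and at -0.05 at the other 2, and the probe at 0.73 passed (limma's adjusted p = 0.0394). That probe shared a stretch of 25 bases with a probe of another gene name.

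LINC00087 had 2 probes well above 0 and 1 near 0 in the miR-421 line. Under miR-421 the second passed at 1.02, 1.10 and 1.15 (limma's adjusted p = 0.0104), while the third gave 0.08, 0.05 and -0.01. LINC00667 had probes called in opposite directions in the miR-421 line, at 0.45 (limma's adjusted p = 0.0278) and at -0.23 (limma's adjusted p = 0.0469). LINC00673, a gene beside the transcription factor gene SOX9, had a probe at -1.29, 1.44 and -1.73 in the miR-338-5p line, where replicate 2 stood apart, and at -1.59, -1.49 and -1.96 in the miR-421 line, which did not pass (limma's adjusted p = 0.0878).

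In the other split genes a single probe passed, with LINC00963 and LINC01296 as the exceptions. Under miR-338-5p the probe that passed was at 0.63 for LINC00476, 1.28 for LINC01511, 0.28 for LINC01547, 0.33 for LINC00659 and -0.50 for LINC00641. Under miR-421 the probes that passed upward were at 0.71 for LINC00176, 0.75 for LINC01301, 0.68 for LINC01347, 0.45 for LINC00957, 0.42 for LINC01089, 0.34 for LINC00482, 0.33 for LINC00969, 0.31 for LINC00941, 0.27 for LINC01000, 0.26 for LINC00092 and 0.25 for LINC01128. Downward they were at -1.10 for LINC00504, -0.39 for LINC01351 and -0.32 for LINC00673, the last of which was not well above background in Cy5 in that line, so its fall is at least 1.22-fold.

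**Figure D4:**
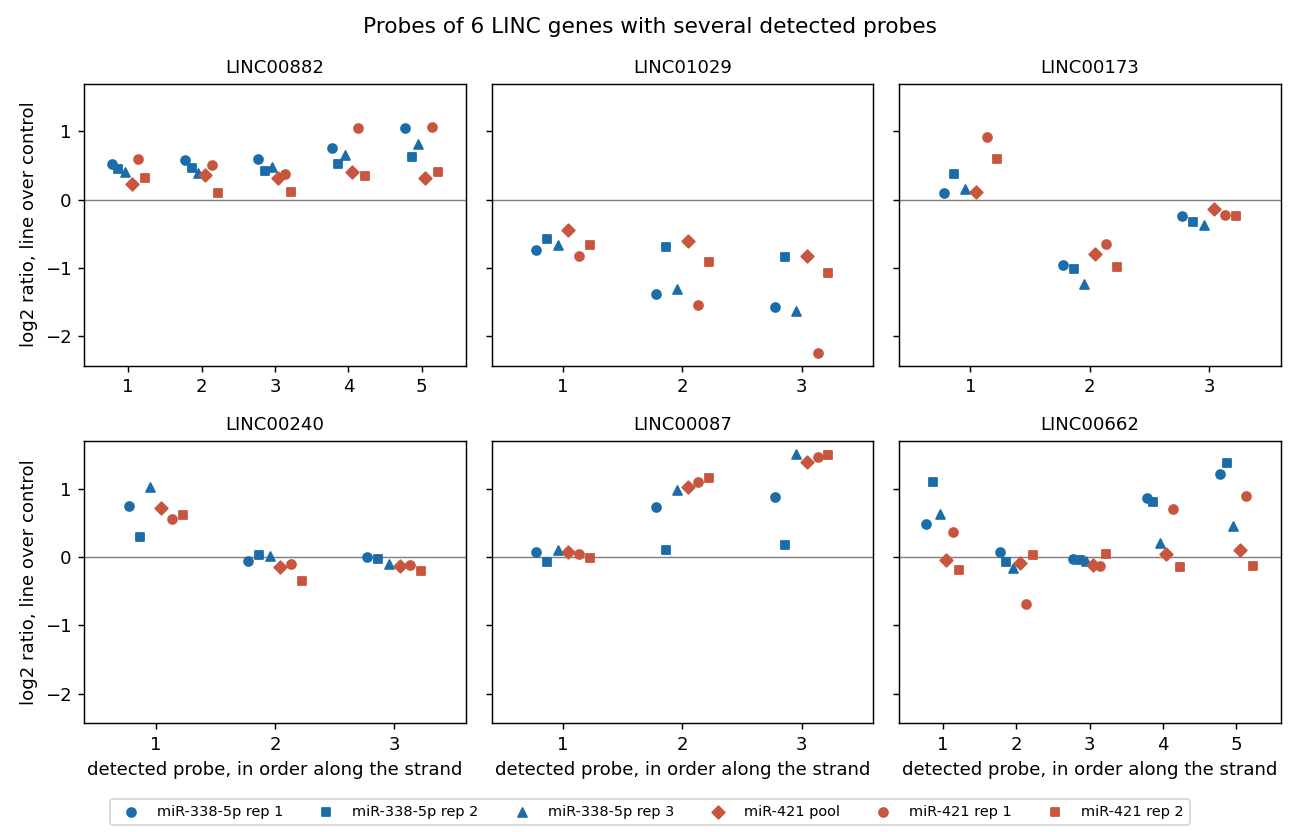
Log2 ratio of miRNA line over control (y axis) on each array for every detected probe, in order along the strand (x axis), of 6 LINC genes. All probes of LINC00882 lie above 0 and all of LINC01029 below 0 on the 6 arrays, whereas LINC00173, LINC00240, LINC00087 and LINC00662 hold probes that moved and probes near 0 or on the other side.

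A run of cytosines in the probe went with higher ratios in the miR-421 line, a pattern noticed after the values were seen. Of 129 LINC probes with 4 or more C in a row, 18 were called higher there, or 14%, against 26 of 347 without, or 7.49%. For miR-338-5p 0 of the 129 were called higher and 15 of the 347 were, while among all detected probes 2.15% with and 4.07% without a run were called higher. In the miR-421 line these shares of all detected probes were 15% with and 7.84% without such a run, so the difference was not limited to LINC probes.

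The difference was largest on 2 arrays and in bright probes, although 9 of the 18 LINC probes with a run that were called higher were not in the brightest bin. For the 20 LINC probes of the brightest bin with a C run, the median log2 ratio was 0.04, 0.18 and 0.12 on the miR-338-5p arrays. It was 0.11 on the miR-421 pool, 0.73 on replicate 1 and 0.53 on replicate 2. For all 1153 such probes on the array it was 0.08, 0.52 and 0.38 on the miR-421 arrays, and -0.08, -0.18 and -0.07 for the 5723 bright probes without a run. On the miR-338-5p arrays these medians were -0.01, 0.14 and 0.09 with a run and -0.04, -0.11 and -0.06 without. The 26 bright LINC probes without a run were at 0.07, 0.40 and 0.05 on the miR-421 arrays. The part of base composition, labelling or the pooled RNA in this was not tested.

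LINC01356 and LINC00644 show it. LINC01356 gave 0.38, 0.39 and 0.32 in the miR-338-5p line and 0.31, 1.35 and 1.38 in the miR-421 line (limma's adjusted p = 0.0242). LINC01001 gave 0.05, 0.73 and 0.67 in the miR-421 line and LINC00900 gave 0.15, 0.84 and 0.53. In LINC01356, LINC01001 and LINC00900 the pool was at the level of the miR-338-5p arrays. The pool value of LINC00644, 0.43, lay just above its miR-338-5p values of 0.12, 0.34 and 0.38. LINC01201 had the same profile with no run of 4, at 0.12, 1.58 and 1.34. With the probes that hold such a run left out of the fit, 40 LINC probes passed in the miR-421 line, 26 higher and 14 lower, and 25 in the miR-338-5p line.

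**Figure D5:**
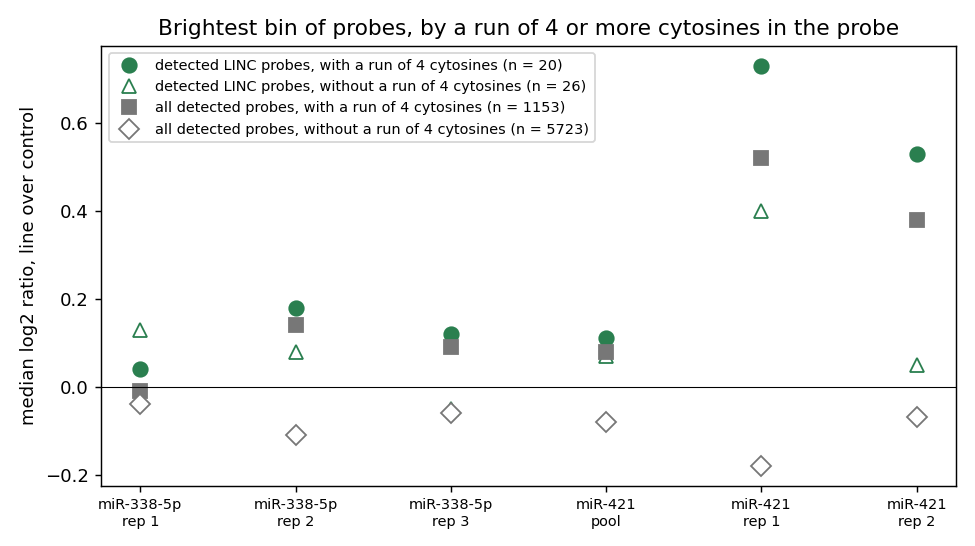
Median log2 ratio of miRNA line over control (y axis) on each array (x axis) for probes of the brightest bin, with or without a run of 4 or more cytosines, for LINC probes and all detected probes. The filled symbols rise on miR-421 replicates 1 and 2, to 0.73 and 0.53 for LINC probes, and not on the miR-421 pool.

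Of 25 LINC genes known from prostate or other cancers, 24 were on the array and 14 were detected. None of the 14 passed at its brightest probe in the miR-338-5p line. LINC01088 rose in the miR-421 line, at 0.08, 0.70 and 0.66 (limma's adjusted p = 0.0448), and LINC01296, now the pseudogene DUXAP9, fell, at -0.25, -0.25 and -0.27 (limma's adjusted p = 0.0494). Both calls were lost in 5 of 6 fits without 1 array, and they held in 7 and 2 of 18 alternatives. The probe of LINC01088 holds CCCCC and shows the low pool. Another probe of LINC01296 gave -0.54, -1.27 and -0.47 and passed too. These are 2 of 14 genes, where 21.5% of all detected probes passed.

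The other members of that list did not pass at their brightest probe. LINC00662 was highest in the miR-338-5p line, at 1.21, 1.37 and 0.46 (limma's adjusted p = 0.0578). LINC00467, which lies beside TRAF5, gave 0.21, 0.73 and -0.06 and then -0.60, 0.38 and -1.07, a wide scatter in both lines. LINC00963 was at -0.24, -0.40 and -0.28 and then -0.26, -0.48 and 0.07, while 3 of its other probes passed upward in the miR-421 line, at 0.21, 0.59 and 0.73. LINC00657, now NORAD, an RNA that binds PUMILIO proteins, gave -0.27, -0.61 and -0.15 and then -0.14, -0.34 and -0.07.

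LINC00152, now CYTOR, gave 0.65, 0.10 and 0.02 and then 0.29, 0.37 and 0.28, above 0 on all 6 arrays. In the miR-421 line it passed in 5 of 18 alternatives, at 1.32 with plain background subtraction (limma's adjusted p = 0.0298) and at 1.55 in the authors' deposited table (limma's adjusted p = 0.0208 on those values). LINC00665 gave 0.47, 0.07 and 0.15 and then 0.17, 0.59 and 0.26, and LINC00673 at its brightest probe was at 0.02 and 0.41. LINC00941, LINC00908, LINC00857, LINC01133 and LINC01234 had means between -0.17 and 0.13 in both lines. LINC00844, LINC00993, LINC00675, LINC00261, LINC00312, LINC00473, LINC00511, LINC00518, LINC01116 and LINC01138 were not detected by the rule, and LINC00978 had no probe under that name.

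Of the 15 genes now listed as protein coding, 1 rose and 1 fell in the miR-338-5p line and 2 rose and 1 fell in the miR-421 line at the brightest probe, where 9.02% and 21.5% of all detected probes were called. LINC00634, now SMIM45, rose in the miR-421 line at 0.41, 0.55 and 0.55 (limma's adjusted p = 0.0149), and LINC00176, now C20orf204, at 0.10, 1.17 and 0.86 (limma's adjusted p = 0.0487). LINC00116, the mitochondrial micropeptide gene MTLN, was at 0.19 in both lines and did not pass. LINC01420, the P-body micropeptide gene NBDY, was at 0.07 and 0.33 and did not pass. LINC00998, now SMIM30, was at -0.13 and -0.55.

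Other named long noncoding RNA genes are set beside the LINC genes for scale. Of 26 detected, 1 fell in the miR-338-5p line, and 3 rose and 2 fell in the miR-421 line, where 9.02% and 21.5% of all detected probes were called. MALAT1, an abundant nuclear RNA, gave -0.60, -0.60 and -0.71 and then -1.11, -1.60 and -1.72 (limma's adjusted p = 0.0314 and 0.00311). TUG1 fell in the miR-421 line, at -0.33, -1.31 and -0.70 (limma's adjusted p = 0.0359). MIR22HG, PCAT6 and PVT1 rose there, at means of 1.05, 0.55 and 0.40. Probes of other uncharacterised loci were called about as often as LINC probes: 5.54% and 14.8% of XLOC names, 6.63% and 14.4% of LOC names, and 4.02% and 12.1% of lnc or lincRNA names in the miR-338-5p and miR-421 lines.

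The nearest protein-coding genes of the named LINC genes in RefSeq's order numbered 72, of which 49 were detected. Under miR-338-5p 0 were called higher and 3 lower: HPDL, ACTR3B and TRAF5. In the miR-421 line 3 were called higher, LASP1, IER5L and CLPTM1L, and 11 lower, ZNF254 beside LINC00662 at -1.16 among them. That is 3 and 14 of 49, where 9.02% and 21.5% of all detected probes were called. These neighbours were picked by position alone, and no pairing of a LINC gene with its neighbour was tested.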

How the data were processed

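RNA of 6 two-colour Agilent arrays was analysed. Per the labels' protocols, total RNA was given poly(A) tails before oligo-dT labelling, so RNA without a natural tail could be labelled too. Spot mean and local background intensities in the deposited scanner files were made by Feature Extraction 11.5.1.1 on hg19, per the file headers. The deposited files also hold the image software's log10 ratio. The authors' value table holds log2 values, 1 per gene, whose normalization is not given in the sources used here.

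Here intensities were corrected by normexp (offset 50) and loess within arrays, outlier spots were left out, and spots of a probe were averaged. Group means were tested with limma 3.58.1 (R 4.3.3), two-sided, with Benjamini-Hochberg adjustment over all detected probes, by 3 arrays per line, whose number limits the precision. The self-test on simulated data recovered 77%, 75% and 63.2% of probes shifted by 1 on the log2 scale in the miR-338-5p, miR-421 and difference comparisons over 27503 probes. It made 10, 14 and 11 false calls beside 200, 200 and 400 shifted probes. Most called LINC values were smaller than this shift, so the recovery does not describe them.

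A gene was named by its brightest probe: the 6 largest rises and 6 largest falls past the threshold with 1 sign on all 3 arrays in each line (fewer where fewer met it), the largest differences without overlap, a list of studied LINC genes, and genes whose probes differ in sign or call. The other genes named were chosen after their values were seen. Members and lists were chosen with earlier results of these data known. Symbols and neighbours came from RefSeq (GRCh38.p14), whose coordinates are not printed. The numbers 1 and 2 in both lines did not pair the arrays (correlations of deviations -0.141 and -0.212).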

Additional observations from a re-analysis of the deposited data

Results flagged for a closer look

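Among the named genes, the following probes had every measured array of one line above 0 and every measured array of the other below 0. LINC00659 differed by 0.49 at a probe with 0.29, 0.46 and 0.26 in the miR-338-5p line and -0.17, -0.19 and -0.11 in the miR-421 line, and by 0.28 at its other probe. LINC01213 differed by 0.46, with 0.04, 0.47 and 0.55 against -0.15, -0.07 and -0.11, but it was well above background in neither dye on any miR-421 array and met the detection rule through the miR-338-5p arrays alone. LINC00482 differed by -0.47, with -0.01, -0.31 and -0.10 against 0.22, 0.48 and 0.32. LINC01347 differed by -0.71, with -0.03, -0.05 and -0.01 against 0.91 and 0.44 on 2 arrays, the spot on the pool array being left out as an outlier. None passed limma's test of the difference over all detected probes, with adjusted p = 0.117 and 0.231 for the probes of LINC00659, 0.265, 0.190 and 0.194. Such probes numbered 14 among the 476, or 2.94%, against 3.18% of all detected probes. 1 of the 14, that of LINC01347, was not measured on all 6 arrays.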

How the results depend on the processing

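Over 18 alternatives and 1 chosen after seeing the data (probes with CCCC left out), the number of LINC probes past the threshold in the miR-338-5p line (25) was 34 with no background correction, 31 with plain subtraction, 15 with median centring, 12 genes in the authors' table, 14 with no filter, 46 with a trended and robust variance, 1 with its own arrays alone and 15 for gene means. Leaving out 1 array gave 3 to 33. In the miR-421 line (60) it was 78, 73, 43, 46, 39, 81, 31 and 39 under the same changes, 82 from the scanner program's ratio and 40 once CCCC probes were left out; leaving out 1 array gave 4 to 54. Between the lines it was 0 except 2 with the trended and robust variance. Gene-level counts are of 322 genes, not 476 probes. The replicate block, which the check of the numbers did not bear out, gave 26 and 61. Of 26 called values of named genes none changed sign. The value of LINC00673 at its brightest probe in the miR-421 line, 0.41, was -1.48 for the gene in the authors' table; the authors' rows name no probe, and the cause was not tested. LINC medians ran from -0.02 to 0.11 in the miR-338-5p line and from 0.02 to 0.27 in the miR-421 line. Dim signal limits what can be said of the 204 LINC probes in the dimmest bin.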
